A study of Rattus norvegicus with 6 samples.

Results

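The miRNA content of circulating exosomes was compared between rats that received Naoxintong Capsule (NXT), a herbal medicine, and rats that received saline. Exosomes are vesicles of nanometre size that are shed by cells and carry RNA in blood. All libraries came from serum exosomes of male Sprague-Dawley rats, aged 6 to 8 weeks and on normal diet, with 10 rats per group. NXT-Exo came from rats given NXT by gavage at 1000 mg/kg/d (5 libraries), and Ctl-Exo from rats given saline at 5 mL/kg/d (1 library here, replicate 5). The table also has columns headed Ctl-Exo 1 to 4, which match no sample in the labels used here and were not analysed, so every group comparison rests on a single control library. The titles give 7 days of dosing for every library, whereas in the treatment field the duration rises by 1 day per NXT-Exo library, from 7 to 11 days, and is 11 days in Ctl-Exo 5, and which is right cannot be told from the labels. How many rats entered a library is not given in the sources used here. The 4 miRNAs described here are both arms of miR-122 and miR-802, chosen by name as miRNAs of hepatocytes. All 4 were found among the 867 listed miRNA sequences, and all 4 had reads.

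A miRNA precursor folds into a hairpin, from which a 5p and a 3p arm are cut. One arm is usually loaded into the silencing complex and kept, whereas the other is mostly degraded. The loaded arm recognises mRNAs mainly through its seed, bases 2 to 8. miR-122-5p is by far the dominant miRNA of hepatocytes, where it acts in lipid and cholesterol metabolism, and its level in blood is used as a marker of liver injury. miR-802 is found in liver, and also in pancreas, kidney and gut, and in liver it has been linked to glucose metabolism. No hepatocyte protein or mRNA was measured, so the cells that released these miRNAs were not identified.

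The mature sequences are shown because the arms, their seeds and their ends decide which reads each name counts. They are written as DNA, 5′ to 3′, as the authors listed them, with the seed in capitals. The prefix rno (Rattus norvegicus) of listed names is left out elsewhere.
rno-miR-122-5p: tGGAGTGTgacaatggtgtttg
rno-miR-122-3p: aACGCCATcatcacactaa
rno-miR-802-5p: tCAGTAACaaagattcatcct
rno-miR-802-3p: aCGGAGAGtctttgtcactcagt
No seed was shared among the 4 arms. Among the other listed sequences, only further forms of miR-122 shared the seed of a miR-122 arm, and none shared the seed of a miR-802 arm.

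Each hairpin holds both listed arms without a mismatch. The hairpins from RefSeq (rat assembly GRCr8) are written as DNA with the arms in capitals.
Mir122: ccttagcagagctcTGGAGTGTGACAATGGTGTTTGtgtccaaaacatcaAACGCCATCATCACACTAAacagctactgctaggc
Mir802: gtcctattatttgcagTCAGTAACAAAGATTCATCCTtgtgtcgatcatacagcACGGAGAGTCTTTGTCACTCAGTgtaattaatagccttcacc
Mir122 lies on the plus strand at chr18:61028817-61028901, inside the transcribed pseudogene LOC134482951 and between the protein-coding genes Nedd4l and Alpk2. On the minus strand the same place carries Mir3591, at chr18:61028804-61028912. Mir802 lies on the plus strand at chr11:46112362-46112457, inside the lncRNA LOC134480977. In the same assembly miR-122-5p covers 61028831 to 61028852 and miR-122-3p 61028867 to 61028885 of chromosome 18, and miR-802-5p covers 46112378 to 46112398 and miR-802-3p 46112416 to 46112438 of chromosome 11.

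The counts listed for the libraries summed to between 1168686 and 3781718 reads in NXT-Exo and to 1890463 in Ctl-Exo 5. They were scaled to CPM, counts per 1e6 listed reads after TMM correction of library size, so each level is a share of the library. A single read equalled 0.261 to 0.782 CPM, depending on the library, and 0.544 CPM in Ctl-Exo 5. The floor of detection was set at 3 reads, or 1.63 CPM in Ctl-Exo 5. Intervals and floors cover counting error only.

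miR-122-5p was abundant in both groups and was higher in every NXT-Exo library than in Ctl-Exo 5. Its level was 17384 CPM in NXT-Exo 1, 3294 CPM in NXT-Exo 2, 3711 CPM in NXT-Exo 3, 3372 CPM in NXT-Exo 4 and 6430 CPM in NXT-Exo 5, against 2195 CPM in Ctl-Exo 5. NXT-Exo 1 stood far above the rest, NXT-Exo 5 came next, and the other 3 NXT-Exo libraries lay close together. These levels rested on 52142, 10936, 8255, 4313 and 24653 reads in NXT-Exo and on 4032 reads in Ctl-Exo 5. With so many reads the counting error was small, and the 95% Wilson interval of Ctl-Exo 5, 2129 to 2264 CPM, did not reach the lowest NXT-Exo interval, which began at 3233 CPM. miR-122-5p took 1.79% of the listed reads of NXT-Exo 1, where it ranked 8 of all sequences, and 0.213% in Ctl-Exo 5, where it ranked 50. In the other NXT-Exo libraries it ranked 27 to 40. A larger number of vesicles from one source and more copies per vesicle cannot be told apart in such shares.

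The NXT-Exo mean of miR-122-5p was 6838 ± 6036 CPM (SD, n = 5), 3.11 times the level of Ctl-Exo 5. In the edgeR quasi-likelihood fit over the 865 miRNAs with reads, the log2 fold change was 1.64 ± 1.38 (SE) and the Benjamini-Hochberg adjusted p was 0.818. This fit takes the spread from the 5 NXT-Exo libraries and assumes that the single Ctl-Exo library varies like them. In the same fit 0 of 865 miRNAs (0%) were called at an adjusted p under 0.05 with at least a 2-fold change, and 49 (5.66%) had an unadjusted p under 0.05. DESeq2 also called 0, with 33 at an unadjusted p under 0.05, and limma called 1, miR-200b-5p, with 59. Without NXT-Exo 1 the NXT-Exo mean of miR-122-5p was 4202 ± 1496 CPM (SD, n = 4) and the edgeR log2 fold change was 0.94 ± 0.25 (SE). The fold change was thus smaller without NXT-Exo 1 and kept its direction. Its SE was also smaller, at 0.25 against 1.38, so the wide SE of the main fit depended on NXT-Exo 1. miR-122-5p was not called in this fit either. Ctl-Exo 5 was below all 5 NXT-Exo libraries for 15% of all miRNAs, and among the 4 described here this held for miR-122-5p alone, 1 of 4 against that background. A mean at least 2-fold higher together with no overlap was also found for miR-122-5p alone, against 5.32% of all miRNAs. The 2-fold mean rested on NXT-Exo 1. By the NXT-Exo median the ratio to Ctl-Exo 5 was 1.69, and without NXT-Exo 1 the mean was also less than 2-fold higher. Both shares over all miRNAs take in sequences of few reads and are not a background of like abundance.

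**Figure D1:**
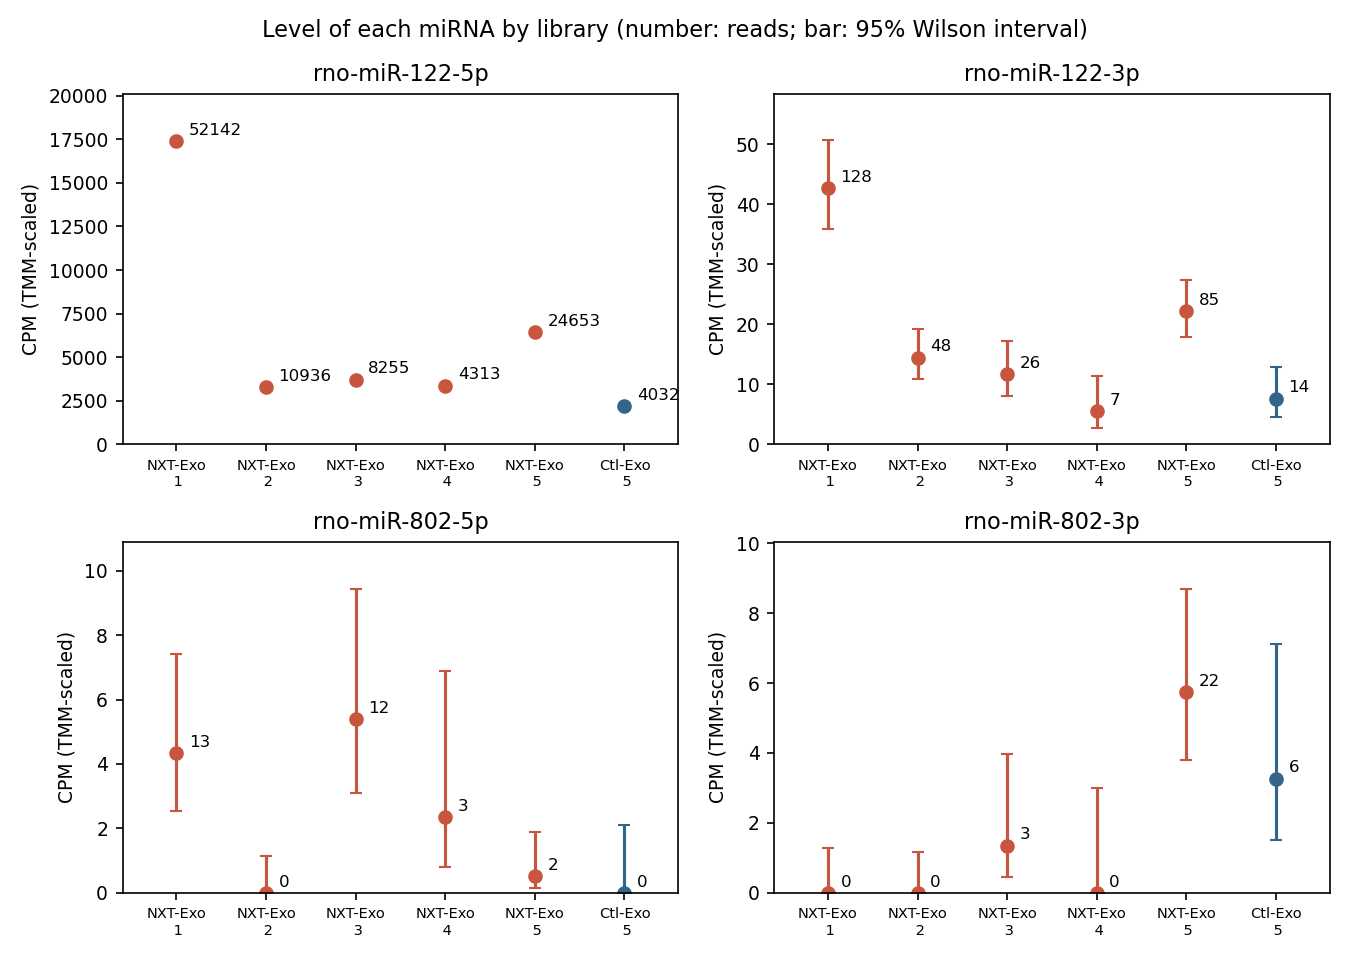
Each panel plots the level of 1 miRNA in CPM (TMM-scaled) in the 5 NXT-Exo libraries (red) and in Ctl-Exo 5 (blue), with 95% Wilson intervals as bars and the number of reads beside each point. miR-122-5p and miR-122-3p were highest in NXT-Exo 1 and next highest in NXT-Exo 5, whereas miR-802-5p and miR-802-3p had at most 13 and 22 reads in any library.

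miR-122-5p varied widely between NXT-Exo libraries. Of the 66 miRNAs that averaged 1000 CPM or more over the 6 libraries, none had a larger SD of log2(CPM + 1) over the NXT-Exo libraries than miR-122-5p, at 1.02. The median of these SDs was 0.19, and the next largest was 0.61, for miR-125b-5p. NXT-Exo 1 was 4.91 times the median of the other NXT-Exo libraries for miR-122-5p, and the next largest such ratio among the 66 was 1.39, for miR-328a-3p. The neighbours of miR-122-5p in the order of mean CPM over all 6 libraries were steadier. The sequence just above it, miR-486-x, had an NXT-Exo mean of 6226 ± 1238 CPM (SD, n = 5), against 6018 CPM for Ctl-Exo 5. The one just below it, miR-21-5p, had one of 5696 ± 981 CPM (SD, n = 5), against 4579 CPM for Ctl-Exo 5. Their mean levels differed from that of miR-122-5p by less than its SD.

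**Figure D2:**
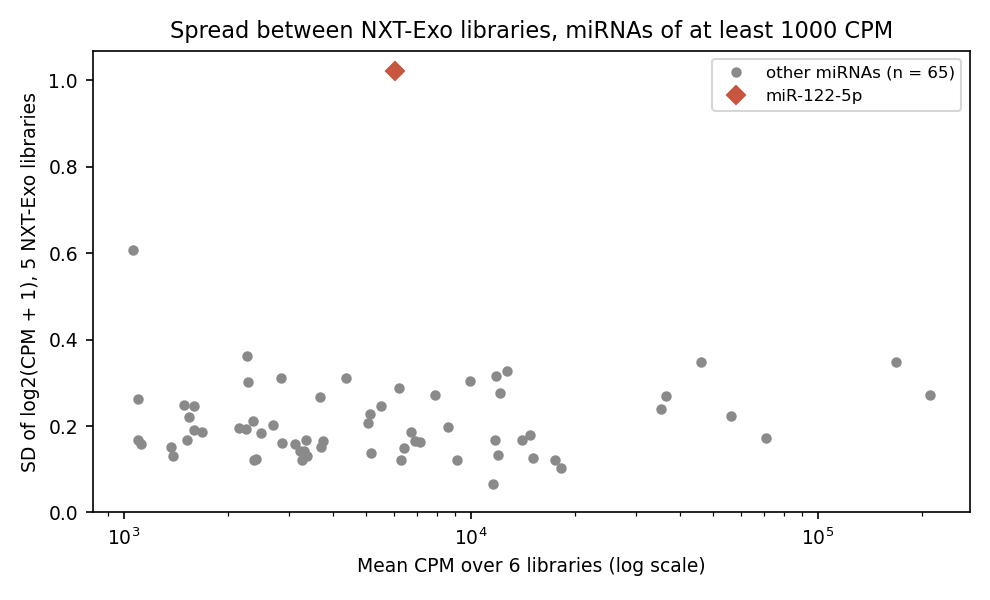
The SD of log2(CPM + 1) over the 5 NXT-Exo libraries is plotted against the mean CPM over 6 libraries (log scale) for the 66 miRNAs of at least 1000 CPM, 1 point each. miR-122-5p (red diamond) lies at 1.02, above all others, the nearest of which is at 0.61.

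miR-122-3p, the minor arm, followed the 5p arm at a far lower level. It had 42.7 CPM in NXT-Exo 1, 14.5 CPM in NXT-Exo 2, 11.7 CPM in NXT-Exo 3, 5.47 CPM in NXT-Exo 4 and 22.2 CPM in NXT-Exo 5, against 7.62 CPM in Ctl-Exo 5. NXT-Exo 4 was below Ctl-Exo 5 and the other 4 NXT-Exo libraries were above it, so the groups overlapped. The values of NXT-Exo 4 and Ctl-Exo 5 rested on 7 and 14 reads, and their 95% Wilson intervals overlapped. The NXT-Exo mean was 19.3 ± 14.4 CPM (SD, n = 5). The edgeR log2 fold change was 1.37 ± 0.63 (SE), with an adjusted p of 0.673, so it did not pass. The levels of the arms on the log2(CPM + 1) scale had Pearson's r = 0.897 (exact permutation p = 0.0139, two-sided) and Spearman's rho = 0.714 (exact permutation p = 0.136) over the 6 libraries, the only relation tested. Without NXT-Exo 1 and NXT-Exo 5, the libraries farthest from the median, r was 0.31 over 4 libraries, so the relation rested on those 2 libraries.

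Reads of the 3p arm were also counted under other names. The table lists a predicted miRNA of 22 bases, here called the 22-base form, which continues miR-122-3p by 3 bases. Of 419 rat hairpins in the RefSeq table, only Mir122 holds this sequence, at chr18:61028867-61028888. A second row, miR-122-y, has 21 bases of which the first 20 match the hairpin. For the 5p arm, miR-122-x and miR-122-z carry 2 bases beyond miR-122-5p. These rows are shown because they are further forms of the same arms, and capitals mark the bases at the end that do not match the hairpin.
22-base form: aacgccatcatcacactaaaca
miR-122-y: aacgccatcatcacactaaaT
miR-122-x: tggagtgtgacaatggtgtttgAT
miR-122-z: tggagtgtgacaatggtgtttgtA
All of them start at the same base as the named arm and so keep its seed. The names miR-122-x, miR-122-y and miR-122-z carry no rat prefix.

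Over the 6 libraries the 3p arm had 486 reads in all, of which the 19-base miR-122-3p held 63.4% (308 reads), the 22-base form 32.7% (159 reads) and miR-122-y 3.91% (19 reads). The share of the 22-base form differed between NXT-Exo libraries. It was 28.4% in NXT-Exo 1 (95% Wilson interval 22.5 to 35.2%), 18.6% in NXT-Exo 2 (10.7 to 30.4%), 37.3% in NXT-Exo 3 (25.3 to 51.0%), 42.9% in NXT-Exo 4 (21.4 to 67.4%) and 42.2% in NXT-Exo 5 (34.7 to 50.1%). The intervals of NXT-Exo 2 and NXT-Exo 5 did not overlap. In Ctl-Exo 5 it was 22.2% (9.00 to 45.2%), inside the NXT-Exo range, and rested on 4 of 18 reads.

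With its forms added, the 3p arm was higher in all 5 NXT-Exo libraries than in Ctl-Exo 5, as 15% of all miRNAs were. The sums were 63.3 CPM in NXT-Exo 1, 17.8 CPM in NXT-Exo 2, 22.9 CPM in NXT-Exo 3, 10.9 CPM in NXT-Exo 4 and 40.2 CPM in NXT-Exo 5, against 9.80 CPM in Ctl-Exo 5. NXT-Exo 4, which was below Ctl-Exo 5 for the named row, was now slightly above it, a difference of 14 reads against 18 reads in a larger library. The mean of 31.0 ± 21.1 CPM (SD, n = 5) was 3.17 times Ctl-Exo 5, close to the 3.11 times of the 5p arm. In the edgeR fit with these rows merged, a setting chosen after the values were seen, the log2 fold change was 1.68 ± 0.63 (SE), with an adjusted p of 0.626.

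**Figure D3:**
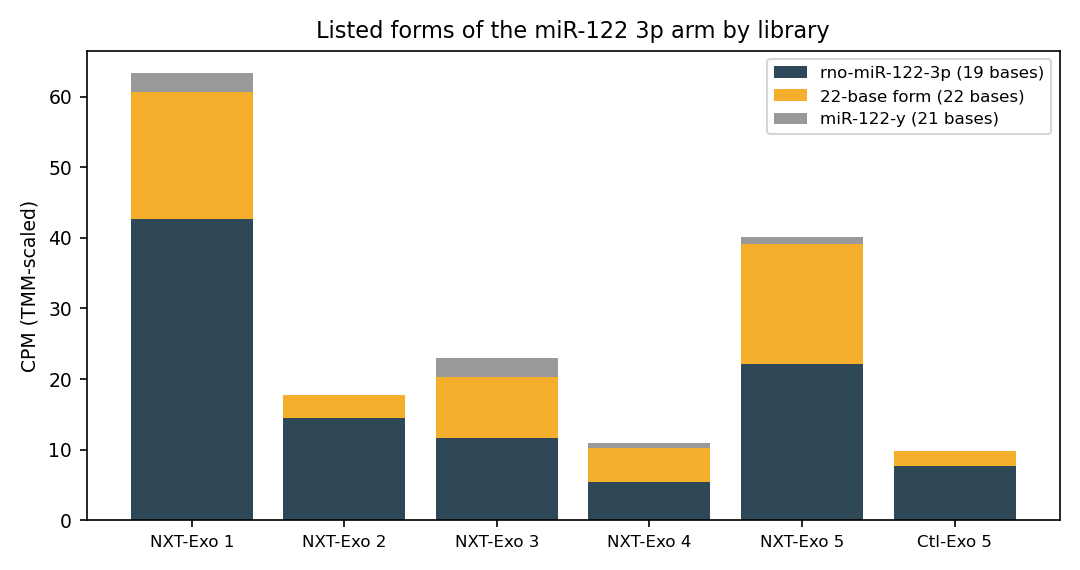
Stacked bars give the level in CPM (TMM-scaled) of the 3 listed forms of the miR-122 3p arm in each library. The total was highest in NXT-Exo 1 (63.3 CPM), and the 22-base form made up 18.6 to 42.9% of it in the NXT-Exo libraries.

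The 5p arm of miR-122 outnumbered the 3p arm strongly in every library. The ratio of miR-122-5p to miR-122-3p reads was 407 in NXT-Exo 1, 228 in NXT-Exo 2, 318 in NXT-Exo 3, 616 in NXT-Exo 4 and 290 in NXT-Exo 5, and it was 288 in Ctl-Exo 5. Ctl-Exo 5 thus lay inside the NXT-Exo range, and the library with the highest ratio, NXT-Exo 4, had 7 reads of the 3p arm. The mean log2 ratio of NXT-Exo was 8.45 ± 0.55 (SD, n = 5), against 8.17 in Ctl-Exo 5, and the difference of 0.28 was smaller than this SD. As a share, the 3p arm made up 0.346% of the reads of both arms in Ctl-Exo 5 (95% Wilson interval 0.206 to 0.58%) and 0.162 to 0.437% in NXT-Exo. The NXT-Exo libraries differed among themselves, since the interval of NXT-Exo 1 (0.206 to 0.291%) lay below that of NXT-Exo 2 (0.33 to 0.579%).

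With all listed forms counted, the ratio fell to between 160 and 309 in NXT-Exo and to 225 in Ctl-Exo 5. Then 2 of 5 NXT-Exo libraries were above Ctl-Exo 5, against 4 of 5 for the named rows, and the log2 difference turned to -0.10, again smaller than the SD of 0.44. Among the 62 rat precursors with at least 5 reads of each named arm in every library, the median ratio of the major to the minor arm over the 6 libraries was 13.4. It was 339 for miR-122, and 9 of the 62 were higher. The SD of the log2 ratio over the NXT-Exo libraries, 0.55 for miR-122, had a median of 0.39 over these precursors, and 14 of them exceeded miR-122.

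miR-802 had few reads in all libraries, at most 13 of the 5p arm and 22 of the 3p arm. miR-802-5p had 13, 0, 12, 3 and 2 reads in NXT-Exo 1 to 5 and 0 reads in Ctl-Exo 5. This corresponds to 4.33, 0, 5.4, 2.35 and 0.522 CPM in NXT-Exo, with a mean of 2.52 ± 2.34 CPM (SD, n = 5). In 3 of the 5 NXT-Exo libraries the count was at or under the floor of 3 reads. Without NXT-Exo 3, the highest, the mean was 1.80 CPM, close to the 1.63 CPM that 3 reads would give in Ctl-Exo 5. The 95% Wilson interval of Ctl-Exo 5 ran up to 2.09 CPM, and the levels of NXT-Exo 2 and NXT-Exo 5 lay under this limit. In the edgeR fit the adjusted p was 0.818, so no difference was detected. The part of depth in this was not tested.

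miR-802-3p had 0, 0, 3, 0 and 22 reads in NXT-Exo 1 to 5 and 6 reads in Ctl-Exo 5. Its level in NXT-Exo 5 was 5.74 CPM, above the 3.27 CPM of Ctl-Exo 5, and it was 0 to 1.35 CPM in the remaining 4 NXT-Exo libraries, all below Ctl-Exo 5. The NXT-Exo mean was 1.42 ± 2.48 CPM (SD, n = 5). The edgeR log2 fold change was -1.09 ± 1.64 (SE), with an adjusted p of 0.845. The arms therefore pointed in opposite directions between the groups, and neither passed the test.

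The arm of miR-802 with more reads differed between libraries. The 3p arm made up 0 of 13 reads in NXT-Exo 1 (95% Wilson interval up to 22.8%), 20% of 15 reads in NXT-Exo 3 (7.05 to 45.2%) and 0 of 3 reads in NXT-Exo 4, whereas it made up 91.7% of 24 reads in NXT-Exo 5 (74.2 to 97.7%) and all 6 reads in Ctl-Exo 5 (from 61.0%). NXT-Exo 2 had no read of either arm. The intervals of NXT-Exo 5 and Ctl-Exo 5 did not overlap those of NXT-Exo 1 and NXT-Exo 3. Over all 6 libraries the arms were nearly equal, with 30 reads of 5p and 31 of 3p. The higher arm differed between libraries in 13 of the 14 rat precursors with reads of both arms and 100 reads or fewer in all (92.9%). This count includes miR-802 and took reversals of any size, which so few reads make likely. It cannot tell whether a change as large as that of miR-802 is common at this depth.

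**Figure D4:**
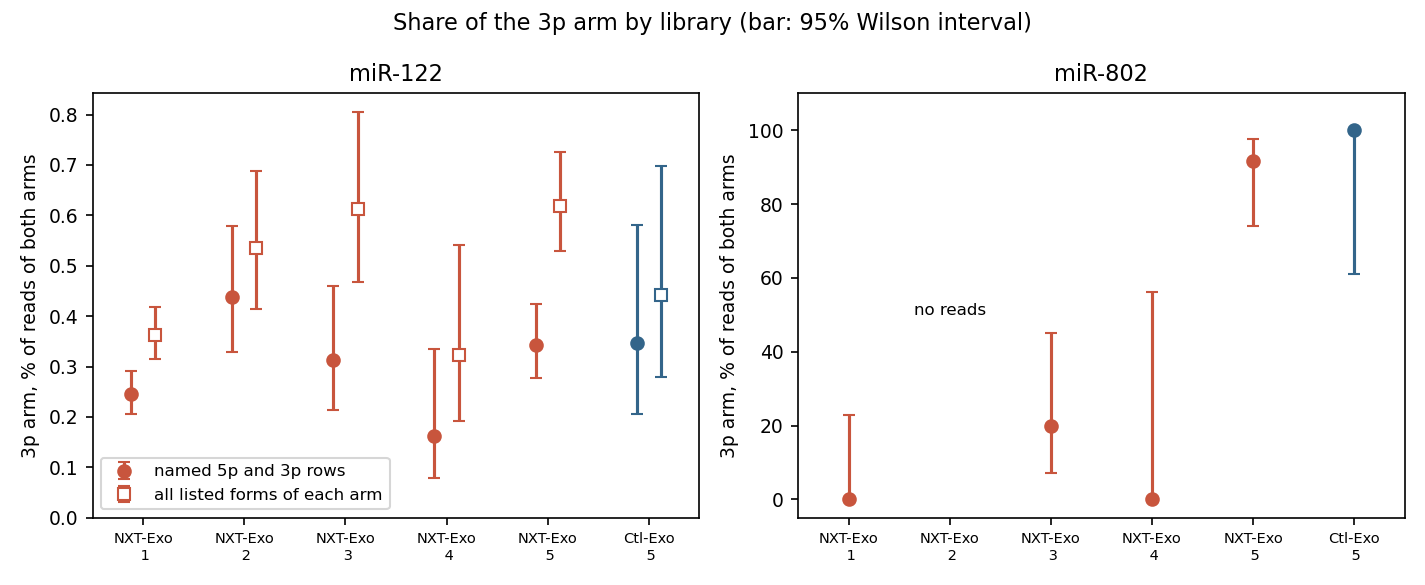
The share of the 3p arm among the reads of both arms (percent) is plotted by library for miR-122 (left) and miR-802 (right), with 95% Wilson intervals, NXT-Exo in red and Ctl-Exo 5 in blue. For miR-122 all shares stayed under 1%, whereas for miR-802 they ran from 0% in NXT-Exo 1 and NXT-Exo 4 to 91.7% in NXT-Exo 5 and 100% in Ctl-Exo 5.

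Other miRNAs enriched in liver differed less between libraries than miR-122-5p when summed. The list held miR-192-5p, miR-194-5p, miR-215, miR-148a-3p and others, and 12 of its 13 sequences had reads. None of the 12 passed the edgeR test in either direction. Their median log2 fold change was 0.08, against 0.20 over all 865 miRNAs. The latter takes in sequences of few reads, such as miR-802-5p, with 0 reads in Ctl-Exo 5 and a fitted value of 5.71. It is thus not a background of like abundance. The summed level of the list was 32479, 31988, 30913, 33183 and 30286 CPM in NXT-Exo 1 to 5, against 28295 CPM in Ctl-Exo 5. NXT-Exo 1 was second to NXT-Exo 4 for this sum, and Ctl-Exo 5 was the lowest of all. The most abundant members were miR-148a-3p, with 15199 ± 1357 CPM (SD, n = 5) against 14923 CPM, and miR-192-5p, with 7483 ± 855 CPM (SD, n = 5) against 5393 CPM. Both are also found in other tissues. Of the list, miR-148a-3p, at 17367 CPM, and miR-378a-5p, at 15.7 CPM, were highest in NXT-Exo 1, as miR-122-5p was. The others of the list were not. In NXT-Exo 1 miR-215, at 4274 CPM, was lowest of the NXT-Exo libraries, and miR-148a-5p, at 85.3 CPM, was lowest of all libraries.

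Set against these miRNAs within a library, which needs no scaling between libraries, miR-122-5p equalled 53.5% of the summed liver list in NXT-Exo 1, 21.2% in NXT-Exo 5, 10.2 to 12% in the other NXT-Exo libraries and 7.76% in Ctl-Exo 5. The number of miR-122-5p reads per miR-192-5p read was 2.50, 0.40, 0.518, 0.396 and 0.983 in NXT-Exo 1 to 5 and 0.407 in Ctl-Exo 5. By this ratio Ctl-Exo 5 lay inside the NXT-Exo range, above NXT-Exo 2 and NXT-Exo 4.

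**Figure D5:**
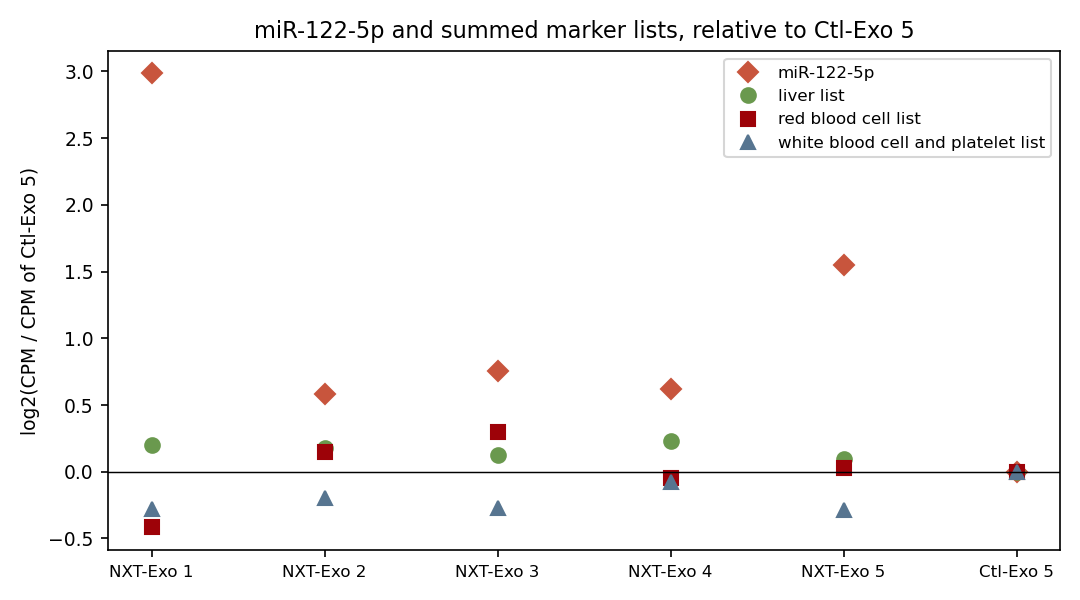
The log2 ratio to Ctl-Exo 5 is plotted by library for miR-122-5p (red diamonds) and for the summed CPM of the liver, red blood cell, and white blood cell and platelet lists. miR-122-5p was above 0 in all 5 NXT-Exo libraries and highest in NXT-Exo 1, where the summed liver list, at 32479 CPM against 28295 CPM, was close to its level in the other NXT-Exo libraries.

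Markers of other sources were measured beside miR-122-5p. The 6 red blood cell miRNAs, led by miR-486 and miR-16-5p, summed to 160236 CPM in NXT-Exo 1, the lowest of all libraries, to between 207382 and 263348 CPM in NXT-Exo 2 to 5 and to 214015 CPM in Ctl-Exo 5. The 8 miRNAs of white blood cells and platelets, led by miR-142-5p and miR-146a-5p, summed to 25133 to 29070 CPM in NXT-Exo, below the 30632 CPM of Ctl-Exo 5. Of the 8 muscle miRNAs, 5 had reads, led by miR-206-3p and miR-133a-3p. The sums of these 5, 113 to 173 CPM in NXT-Exo, enclosed the 121 CPM of Ctl-Exo 5. The 5 did not share a direction. Their log2 fold change was above 0 for 3 of them, -0.75 for miR-1-3p and -1.14 for miR-499-5p. Of the 4 pancreas miRNAs, 3 had reads, led by miR-375-3p and miR-217-5p. The sums of these 3, 735 to 896 CPM in NXT-Exo, were above the 517 CPM of Ctl-Exo 5. Nearly all of each sum was miR-375-3p, at a mean of 824 CPM in NXT-Exo, whereas miR-217-5p averaged 1.69 CPM. The pancreas median below is the value of miR-375-3p, the middle of the 3 log2 fold changes. None of these 22 miRNAs passed the edgeR test, and the median log2 fold changes were -0.07 for red blood cells, -0.22 for white blood cells and platelets, 0.47 for muscle and 0.68 for pancreas, against 0.20 over all miRNAs. As for the liver list, the value over all miRNAs takes in sequences of few reads and is not a background of like abundance. The part of the low red blood cell level of NXT-Exo 1 in its high miR-122-5p was not tested.

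The miRNAs whose level on the log2(CPM + 1) scale moved most like that of miR-122-5p over the 6 libraries were miR-664-3p, with r = 0.906, miR-148a-3p, with r = 0.878, the 22-base form, with r = 0.871, miR-450b-3p, with r = 0.839, and miR-676, with r = 0.822. They were the first 5 of 465 miRNAs that averaged 10 reads or more, and they share with it the libraries and their depth. Without NXT-Exo 1 these correlations were 0.649, 0.467, 0.949, 0.944 and 0.609. One of the 5 is thus the form of the 3p arm described above, which was listed under another name, and miR-122-3p itself, at r = 0.897, was exceeded by 1 of the 465. The 22-base form had 18.0, 3.31, 8.54, 4.69 and 17.0 CPM in NXT-Exo 1 to 5, against 2.18 CPM in Ctl-Exo 5. miR-450b-3p had a mean of 25.7 ± 5.94 CPM in NXT-Exo (SD, n = 5), against 11.4 CPM for Ctl-Exo 5, which was below all 5 NXT-Exo libraries, and its edgeR log2 fold change of 1.18 had an adjusted p of 0.673. miR-664-3p ranged from 71.9 to 96.7 CPM in NXT-Exo, with 66.4 CPM for Ctl-Exo 5. Ctl-Exo 5 was below all NXT-Exo libraries for 15% of all miRNAs. The 5 were also picked by a correlation that included Ctl-Exo 5, where miR-122-5p was lowest.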

How the data were processed

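Small RNA libraries of serum exosomes were made with TruSeq Small RNA kits and sequenced on an Illumina HiSeq, and 5 NXT-Exo libraries and 1 Ctl-Exo library were analysed here. With ACGT101-miR the authors filtered out adapter dimers, junk, repeats and reads of other RNA families, and deposited raw counts of reads per listed miRNA sequence. They also deposited TPM values, which use larger library totals and write 0 reads as 0.01, and these were not used for results. The submitters' processing notes name the build Rnor 6.0, the aligner and miRNA release are not given in the sources used here, and coordinates printed are from GRCr8. Another 8 columns of per-library values, counts and TPM headed Ctl-Exo 1 to 4, match no sample in the labels used here and were not used.

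Counts of the 865 miRNAs with reads were scaled with TMM and tested with edgeR 4.0.16 in R 4.3.3 (quasi-likelihood, robust, two-sided). A miRNA was called at an FDR under 0.05 and a fold change of at least 2 or at most 0.5, the study's thresholds. With 1 Ctl-Exo library, permuting labels cannot give p under 0.167, so no permutation test of groups was made. DESeq2 1.42.0 and limma 3.58.1 were alternatives. The SE was taken from the log2 fold change and the F statistic. The fit was run on simulated data without change and with changes larger than those of miR-122. Whether changes as small as those of miR-122 would be called was not tested. Python 3.11.15 with scipy 1.17.1 gave 95% Wilson intervals. Nothing says whether libraries were separate animals, so p-values measure only the spread between libraries.

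Named were the 4 members, rows sharing a seed, the neighbours of miR-122-5p by mean CPM, the 5 miRNAs most correlated with it, and the 2 most abundant of each marker list. miR-200b-5p, miR-125b-5p, miR-328a-3p, miR-194-5p and miR-215 were named after their values were seen. The members and lists were chosen with earlier results of these data known. Reads of a sequence listed in several forms can be split between rows.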

Additional observations from a re-analysis of the deposited data

Results flagged for a closer look

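Dixon's criterion (a gap above 0.71 of the range) was applied to 11 quantities over the 5 NXT-Exo libraries, and 3 of them exceeded it. Chance gives about 1 in 20 only for normally distributed values. Levels with several zeros, such as those of miR-802-3p, are not of that kind. miR-122-5p in NXT-Exo 1, at 17384 CPM, was separated from the next library by 0.777 of the range. miR-122-5p relative to the summed liver list in NXT-Exo 1, at 53.5%, was separated by 0.745 of the range and shares its reads with the first. miR-802-3p in NXT-Exo 5, at 5.74 CPM from 22 reads, was separated by 0.765 of the range, with 3 of the other libraries at 0. miR-122-3p, also highest in NXT-Exo 1, had a gap of 0.551, below the criterion.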

How the results depend on the processing

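No paired analysis was possible because, with the columns headed Ctl-Exo 1 to 4 not used, replicate 5 was the sole number in both groups analysed. The number of miRNAs called (0) was 1 with limma on log2(CPM + 1), and 0 to 1 when each NXT-Exo library was left out in turn, with 1 without NXT-Exo replicate 4. In both cases it was miR-200b-5p, and the cause was not tested. The other alternatives were median-of-ratios scaling, listed totals alone, filterByExpr (595 miRNAs tested), DESeq2, no robust fit, totals without miR-122-5p, and the merged forms of miR-122, which were added after the values had been seen. In all of them, and in those just named, the 4 miRNAs kept their direction and none was called. The adjusted p of miR-122-5p ranged from 0.227 to 0.982, that of miR-122-3p from 0.34 to 0.982, that of miR-802-5p from 0.681 to 0.982 and that of miR-802-3p from 0.834 to 0.982. The log2 fold change was 0.94 to 1.84 for miR-122-5p, lowest without NXT-Exo replicate 1, 0.86 to 1.68 for miR-122-3p, lowest without NXT-Exo replicate 1, and -3.11 to -0.75 for miR-802-3p, lowest without NXT-Exo replicate 5. The group difference of the 5p to 3p log2 ratio of miR-122 (0.28) was -0.10 to 0.44, and negative with all listed forms counted. The median of the liver list (0.08) was -0.006 to 0.13. At 0.544 CPM per read in Ctl-Exo 5, the depth limits how closely the levels of both arms of miR-802 are known.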
